A study of Homo sapiens with 9 samples.

Results

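The proteasome genes described here are 40 genes whose probe sets carry a single gene symbol of the proteasome. The symbols are those of core subunits (PSMA and PSMB), regulatory particle genes (PSMC and PSMD), activators (PSME) and the inhibitor PSMF1. They also cover the assembly chaperones PSMG1, PSMG2 and POMP. The PSMD genes include assembly chaperones too, among them PSMD9 and PSMD10, counted here with the regulatory particle. The rule uses gene symbols and no measured value, and each gene is represented by its brightest probe set over the arrays. They are 40 of 11963 genes measured at 1 probe set a gene, and they have 63 probe sets in all, with 24 genes holding a single probe set and 16 holding several. PSMA6 and PSME2 share their probe sets with another gene in the array's annotation, so neither was counted. PSMA8, PSMB11, PSMC5, PSMD7 and PSMD13 were not analysed here.

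MDA-MB-231 is a human breast cancer cell line that lacks estrogen and progesterone receptors. In this study its cells stably carried a lentiviral pLKO vector with a short hairpin RNA against Coco, the secreted BMP antagonist also named DAND5, or with a scramble hairpin. The 3 groups were shco2 (hairpin #2 against Coco), shco4 (hairpin #4 against Coco) and scramble, with 3 arrays each. All cells grew in DMEM with 10% serum and all carried a vector. Each hairpin is represented by a single stable line, and the labels call the replicates biological without saying whether they are separate cultures, so p-values measure only the spread between these samples. The level of Coco itself was not analysed here, because no probe set carries that symbol.

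The proteasome degrades proteins tagged with ubiquitin. Its 20S core is a barrel in which outer rings of alpha subunits gate access to inner rings of beta subunits, and PSMB5, PSMB6 and PSMB7 carry the active sites. Interferon gamma induces the replacements PSMB8, PSMB9 and PSMB10, which build the immunoproteasome, and the PA28 cap, whose subunits are encoded by PSME1 and PSME2. These forms are known for trimming peptides for display on MHC class I. The 19S particle binds and unfolds substrates and opens the core, and its genes and those of the core are induced together by the transcription factor NFE2L1 when proteasome activity is blocked.

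The inducible genes differ in the letters around their start sites. These windows are shown because interferon regulatory factors, among them IRF1, bind repeats of the interferon-stimulated response element (ISRE). The windows run from 150 bases before to 20 bases after the start, 5′ to 3′ on the gene's strand, from RefSeq on build GRCh38.p14. PSMB8 lies at chr6:32844028-32844197 on the minus strand. This is 1 of its 2 listed starts, shown because it holds an ISRE match. The other start had no ISRE match from 250 bases before to 50 bases after it. PSMB9 lies at chr6:32854042-32854211 on the plus strand, PSMB10 at chr16:67936831-67937000 on the minus strand and PSME1 at chr14:24136044-24136213 on the plus strand. Capitals mark where the ISRE unit TTTC repeats after a gap of 2 bases, on either strand (its reverse complement reads GAAA). The letters of the PSMB8 match are TTTCGCTTTC, with the reverse complement GAAAGCGAAA.
PSMB8: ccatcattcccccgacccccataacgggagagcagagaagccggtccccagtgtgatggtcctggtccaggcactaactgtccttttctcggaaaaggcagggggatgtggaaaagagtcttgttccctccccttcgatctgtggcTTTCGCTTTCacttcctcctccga
PSMB9: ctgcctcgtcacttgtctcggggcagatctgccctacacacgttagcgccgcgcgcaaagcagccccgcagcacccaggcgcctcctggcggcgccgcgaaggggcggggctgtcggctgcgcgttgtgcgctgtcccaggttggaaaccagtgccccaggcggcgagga
PSMB10: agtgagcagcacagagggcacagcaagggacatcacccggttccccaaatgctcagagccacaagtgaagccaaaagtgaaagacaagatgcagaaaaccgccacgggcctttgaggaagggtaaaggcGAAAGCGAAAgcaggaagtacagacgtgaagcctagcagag
PSME1: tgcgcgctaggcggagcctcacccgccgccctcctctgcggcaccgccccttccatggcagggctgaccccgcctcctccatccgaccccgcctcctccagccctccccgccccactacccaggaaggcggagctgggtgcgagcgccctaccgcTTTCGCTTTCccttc

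The match spans -4 to +6 from the start in PSMB8, -21 to -12 on the reverse strand in PSMB10 and +6 to +15 in PSME1, and PSMB9 has none in its window. A search of both strands over 250 bases before to 50 bases after the start found the letters of PSMB8's match, chosen from that promoter, in 34 of 27305 genes, or 0.12%. Of the 40 proteasome genes, 35 had a promoter in the table, and PSMB8, PSMB10 and PSME1 were the 3 with these letters. PSMA7, PSMB6, PSMB7, PSMB1 and PSMD4 had none in the table. The looser ISRE search, TTTC and TTTC again after any 2 bases,, includes these letters and matched 4.38% of all genes and 5 of the 35, with PSMA4 and PSMB4 added. The antioxidant response element core TGACNNNGC, which NFE2L1 and NFE2L2 bind, matched 16.06% of all genes and 13 of the 35 (37.1%). The gamma-activated site TTCNNNGAA, bound by STAT proteins, matched 9.38% of all genes and 7 of the 35 (20%). No match of 1 motif overlapped a match of another. These are matches of letters and not measured binding.

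The arrays report 1 intensity a probe set, with the authors' scaling to a common trimmed mean, given here as log2 levels with a floor at 4. All 40 genes were above the floor on all 9 arrays. Their mean log2 levels lay between 8.91 for PSMB10 and 13.26 for PSMB1 with a median of 11.50, against a median of 7.65 over all genes. Median intensity over all probe sets of an array was 122.4 to 129.3. The 3′ to 5′ ratio of ACTB, a measure of RNA integrity, was 1.08 to 1.11 with shco2, 1.12 to 1.14 with shco4 and 1.07 to 1.10 in scramble, and its part in the results was not tested. Of markers of the cell line, VIM, CD44, CAV1, AXL, MSN and LGALS1 were at log2 levels of 10.84 to 13.68 on every array. PGR and FOXA1 were at the floor on all arrays, while EPCAM (7.78 to 9.25) and GATA3 (8.77 to 9.42), listed as low in this line, were above it. ESR1 (4.54 to 5.76) and CDH1 (4.81 to 7.93), on the same list, were also above it. ESR1, the estrogen receptor gene, was 0.77 higher with shco4 (limma, adjusted p = 0.0439) and EPCAM was -1.30 (limma, adjusted p = 0.000266). CDH1 was -1.37 with shco2 (limma, adjusted p = 0.0258) and 1.15 with shco4, where it was not called. No other gene of that list was called against scramble. Of the 6 markers high in this line, 5 were called lower with shco2. With shco4, CD44 was 0.36 higher (limma, adjusted p = 0.0110) and AXL was -2.11 (limma, adjusted p = 0.000248). In bulk RNA a change in the share of cells that express a gene and a change in the level per cell cannot be told apart.

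With shco2, 19 of the 40 proteasome genes differed from scramble at a Benjamini-Hochberg adjusted p under 0.05 in limma, 15 higher and 4 lower. The background over all genes at 1 probe set a gene was 24.3%, with 13.3% higher and 11% lower, and the members' shares were 37.5% higher and 10% lower. Proteasome genes are bright, so a second background was taken over the 1216 genes at a mean log2 level of 10.88 or more, the lower quartile of the members. There 37.1% were called with shco2, 16.3% higher and 20.8% lower. With a floor at 1 in place of 16, 10 of the 40 members were called, 7 higher and 3 lower, near the 20.3% of all genes called at that floor. The median log2 difference of the members was 0.14, against 0 over all genes and -0.01 over the bright genes.

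With shco4, 15 of the 40 differed from scramble, 11 higher and 4 lower. The background was 22.2%, with 10.7% higher and 11.5% lower, and among bright genes it was 36.4%, with 21.7% higher and 14.7% lower. The members' total of 37.5% stands near the share among bright genes. With a floor at 1, 7 of 40 were called, 4 higher and 3 lower, at the 17.4% of all genes called there. Their median log2 difference was 0.07, against 0 over all genes and 0.04 over the bright ones. Both comparisons share the scramble arrays.

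**Figure D1:**
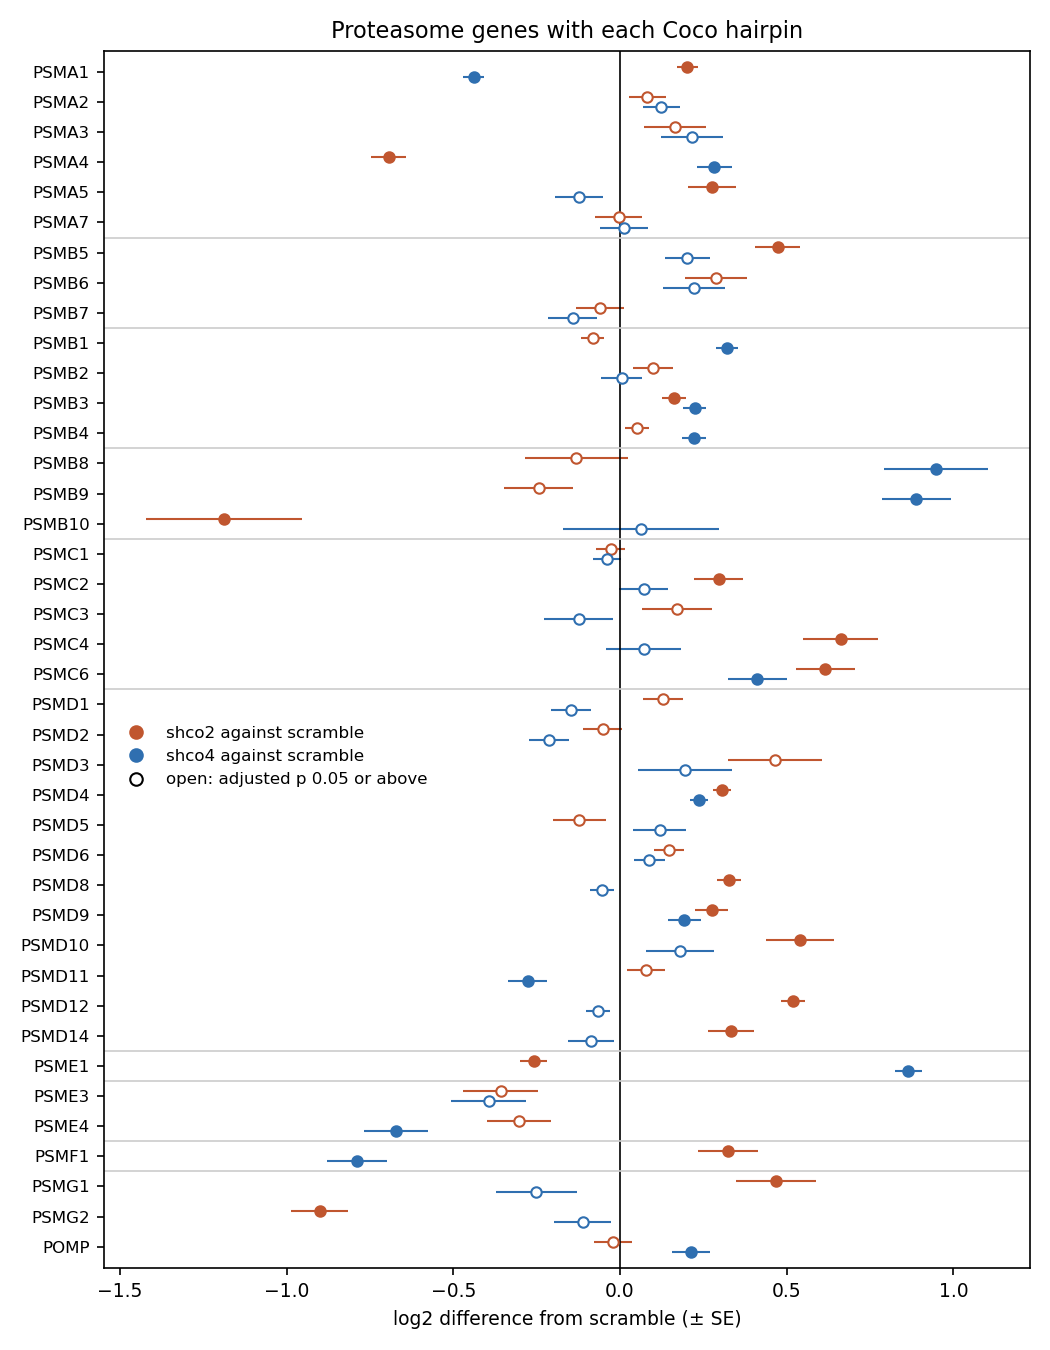
Log2 difference from scramble (x axis, with standard error) for each of the 40 proteasome genes (y axis, by role), with shco2 in orange and shco4 in blue; filled points passed an adjusted p of 0.05 and open ones did not. PSMB10 has the lowest difference, -1.19 with shco2, and PSMB8 the highest, 0.95 with shco4.

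PSMB8, PSMB9 and the PA28 gene PSME1 rose with shco4, by 1.82- to 1.93-fold, and PSMB10 and PSME1 fell with shco2. PSMB5 rose with shco2, where PSMB6 was called higher with a replicate block but not in the main fit. With shco4 none of PSMB5, PSMB6 and PSMB7 was called without a replicate block, while PSMB5 and PSMB6 were called higher with it, by 0.20 and 0.22 on the log2 scale. All values are from 3 arrays a group.

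PSMB8, the inducible chymotrypsin-like subunit that replaces PSMB5, had log2 levels of 10.36, 10.15 and 10.38 with shco2, 11.74, 11.20 and 11.19 with shco4, and 10.46, 10.39 and 10.43 in scramble. All shco4 arrays lay above the others, and the shco2 arrays lay below the scramble arrays. It was 0.95 ± 0.16 (SE) higher on the log2 scale with shco4 than in scramble, 1.93-fold (limma, adjusted p = 0.00830). With shco2 the difference was -0.13 ± 0.16 (limma, adjusted p = 0.690). PSMB9, which replaces PSMB6, had levels of 9.94, 9.90 and 10.04 with shco2, 11.29, 10.97 and 11.02 with shco4, and 10.27, 10.05 and 10.29 in scramble. It was 1.85-fold higher with shco4, a log2 difference of 0.89 ± 0.10 (limma, adjusted p = 0.00270), and -0.24 ± 0.10 with shco2 (limma, adjusted p = 0.169). The shco4 arrays again stood clear of the others, and the shco2 arrays lay just under the lowest scramble array.

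PSMB10, which replaces PSMB7, behaved differently. Its levels were 8.32, 7.97 and 8.0 with shco2, 9.89, 9.12 and 9.03 with shco4, and 9.37, 9.28 and 9.20 in scramble. The shco2 arrays lay below all others, while shco4 replicate 1 lay above and shco4 replicates 2 and 3 below the scramble arrays. It was 2.28-fold lower with shco2, a log2 difference of -1.19 ± 0.23 (limma, adjusted p = 0.0143). That call ended when scramble replicate 1, shco2 replicate 2 or shco2 replicate 3 was left out, with an adjusted p of up to 0.0524. With shco4 the difference was 0.06 ± 0.23 (limma, adjusted p = 1), and -0.21 without shco4 replicate 1 (limma, adjusted p = 0.332).

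PSME1, the alpha subunit of PA28, had levels of 11.01, 11.04 and 10.94 with shco2, 12.21, 12.08 and 12.09 with shco4, and 11.28, 11.24 and 11.25 in scramble. The groups did not overlap. It was 1.20-fold lower with shco2, a log2 difference of -0.26 ± 0.04 (limma, adjusted p = 0.00649), and 1.82-fold higher with shco4, 0.87 ± 0.04 (limma, adjusted p = 0.000248). The shco2 call ended with a floor at 1, adjusted p = 0.0866. Array shco4 replicate 1 was the highest of its group for PSMB8, PSMB9, PSMB10 and PSME1. Without it, PSMB8 was 0.76 (limma, adjusted p = 0.00377) and PSMB9 0.79 (limma, adjusted p = 0.00497) above scramble on the log2 scale.

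Of the constitutive active-site genes, PSMB5 had levels of 12.11, 12.21 and 12.20 with shco2, 11.80, 11.95 and 11.96 with shco4, and 11.59, 11.80 and 11.72 in scramble. The shco2 arrays lay above all others. It rose 1.39-fold with shco2, a log2 difference of 0.47 ± 0.07 (limma, adjusted p = 0.00438). With shco4 it was 0.20 ± 0.07 (limma, adjusted p = 0.0885, and 0.0110 with replicate numbers entered as a block). PSMB6 had levels of 12.32, 12.17 and 12.23 with shco2, 12.26, 12.15 and 12.12 with shco4, and 12.14, 11.79 and 11.93 in scramble, with shco4 overlapping scramble. Its difference was 0.29 ± 0.09 with shco2 (limma, adjusted p = 0.0802, and 0.0230 with the block). With shco4 it was 0.22 ± 0.09 (limma, adjusted p = 0.166, and 0.0490 with the block). PSMB7 had levels of 12.42, 12.26 and 12.40 with shco2, 12.23, 12.19 and 12.41 with shco4, and 12.50, 12.38 and 12.38 in scramble. Its groups overlapped, and the differences were -0.06 ± 0.07 and -0.14 ± 0.07 (limma, adjusted p = 0.704 with shco2 and 0.258 with shco4).

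**Figure D2:**
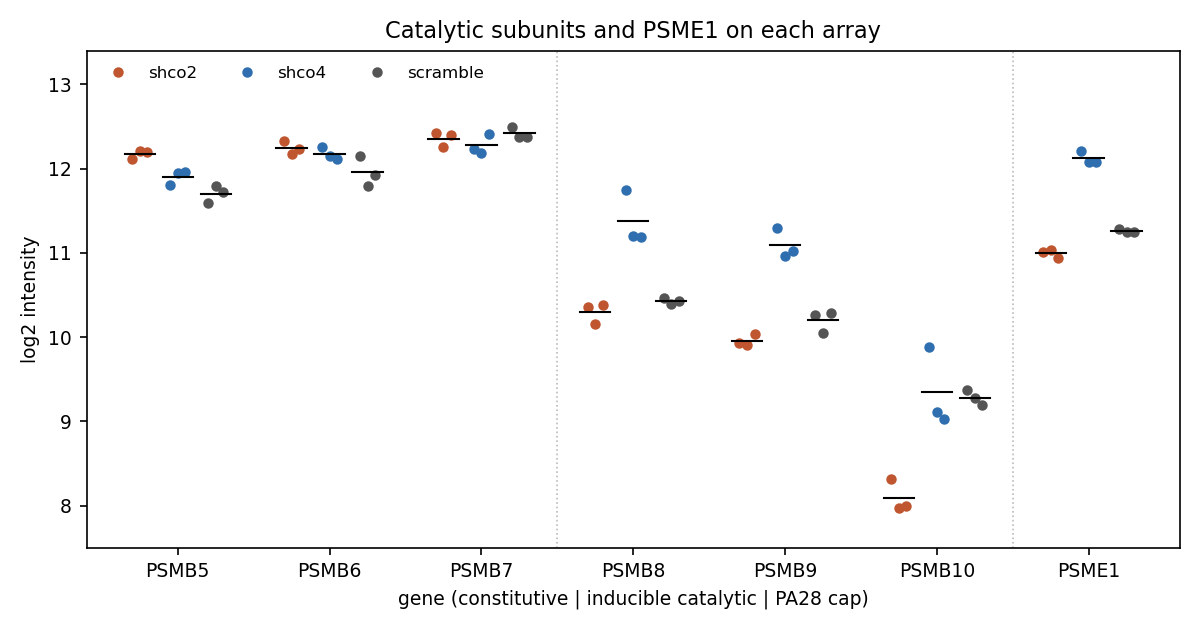
Log2 intensity (y axis) of the constitutive catalytic genes, the inducible ones and PSME1 on each array (points; bars are group means), with shco2, shco4 and scramble from left to right for each gene. The shco4 arrays of PSMB8, PSMB9 and PSME1 lie above both other groups, and those of PSMB10 straddle scramble.

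The mean log2 level of PSMB8, PSMB9 and PSMB10 minus that of PSMB5, PSMB6 and PSMB7 sets both groups side by side on 1 array. It is read only as a difference between arrays, since probe sets differ in brightness for the same amount of RNA. It was -2.75, -2.87 and -2.81 with shco2, -1.12, -1.67 and -1.75 with shco4, and -2.04, -2.08 and -2.04 in scramble. The groups did not overlap, with shco2 lowest and shco4 highest. The difference from scramble was -0.75 with shco2 and 0.54 with shco4, and the second was 0.34 without shco4 replicate 1.

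The immunoproteasome is constitutive in leukocytes, so leukocyte markers were read beside these values. The summed intensity of the 8 measured markers was 213.3 to 258.9 with shco2, 303.8 to 442.5 with shco4 and 184.2 to 254.2 in scramble, highest with shco4. CD14 and CD79A were the 2 of 8 called higher with shco4, by 1.42 and 1.11 on the log2 scale, and MS4A1 was the 1 called with shco2. The defining leukocyte marker PTPRC was at the floor on 5 of 9 arrays and at most 4.91, and LCP2 was at the floor on 8. Of 8 fibroblast markers, summed at 347.3 to 385.8 with shco2, 512.9 to 653.4 with shco4 and 329.2 to 397.7 in scramble, LUM rose with shco4 and FAP was at the floor on all arrays. The part of these markers in the result was not tested.

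Of the 17 measured PSMC and PSMD genes, counted here as the 19S regulatory particle, 9 were called higher and 0 lower with shco2. The median log2 difference of the 17 was 0.30, and 8 did not pass the test. The assembly chaperones PSMD9 and PSMD10 are among the 9. With shco4, 3 of the 17 were called higher and 1 lower, with a median of 0.07. These shares of 17.6% higher and 5.88% lower stood against 10.7% and 11.5% of all genes. Among bright genes the shares were 21.7% higher and 14.7% lower. A share of 52.9% higher with shco2 stood against the 13.3% of all genes and 16.3% of bright genes given above. With shco2, 14 of the 17 had a positive sign, and the 3 with a negative one, PSMC1, PSMD2 and PSMD5, were not called. Among the 9, PSMC2, PSMD9 and PSMD12 each have a dimmer probe set with a negative sign.

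Among the ATPases that unfold substrates, PSMC4 had levels of 11.18, 10.83 and 10.95 with shco2, 10.48, 10.48 and 10.23 with shco4, and 10.43, 10.29 and 10.25 in scramble. Only the shco2 arrays stood apart. It rose 1.58-fold with shco2, a log2 difference of 0.66 ± 0.11 (limma, adjusted p = 0.00832), and was 0.07 ± 0.11 with shco4 (limma, adjusted p = 0.793). PSMC6 had levels of 11.76, 11.65 and 11.63 with shco2, 11.58, 11.44 and 11.40 with shco4, and 11.20, 10.89 and 11.09 in scramble, so the 3 groups did not overlap. It rose 1.53-fold with shco2, 0.62 ± 0.09 (limma, adjusted p = 0.00461), and 1.33-fold with shco4, 0.41 ± 0.09 (limma, adjusted p = 0.0220). The shco4 call of PSMC6 ended without scramble replicate 3, shco4 replicate 1 or shco4 replicate 2, at an adjusted p of up to 0.0652, and with a floor at 1. PSMC2 rose by 0.30 with shco2 (limma, adjusted p = 0.0332, and 0.0569 with the block). The call of PSMC2 also ended when any 1 scramble array, shco2 replicate 1 or 2, or shco4 replicate 1 was left out, at up to 0.102. Its dimmer probe set went the other way, -0.29 (limma, adjusted p = 0.0560). PSMC1 and PSMC3 were called in neither comparison.

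Among the other 19S genes, PSMD12, a lid subunit, had levels of 11.77, 11.77 and 11.87 with shco2, 11.16, 11.24 and 11.25 with shco4, and 11.27, 11.29 and 11.29 in scramble. The shco2 arrays stood above both other groups. It rose 1.43-fold with shco2, 0.52 ± 0.04 (limma, adjusted p = 0.000435). A second, dimmer probe set of PSMD12 disagreed, at -0.12 with shco2 (limma, adjusted p = 0.617) and 0.47 with shco4 (limma, adjusted p = 0.0376), so its direction depends on the probe set. PSMD10, known as the assembly chaperone gankyrin, rose by 0.54 ± 0.10 with shco2 (limma, adjusted p = 0.0121), and was 0.18 with shco4 (limma, adjusted p = 0.304, and 0.0140 with the block). PSMD14, the deubiquitinase of the lid, rose by 0.33 ± 0.07 with shco2 (limma, adjusted p = 0.0180), and the lid subunit PSMD8 rose by 0.33 ± 0.04 (limma, adjusted p = 0.00187). Neither passed the test with shco4, at -0.09 and -0.05. The shco2 call of PSMD14 ended with a floor at 1 and with only the 2 groups compared, at up to 0.0654.

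The ubiquitin receptor PSMD4 had levels of 11.57, 11.53 and 11.62 with shco2, 11.51, 11.48 and 11.51 with shco4, and 11.30, 11.23 and 11.27 in scramble, with both hairpin groups above all scramble arrays. It rose by 0.31 ± 0.03 with shco2 (limma, adjusted p = 0.000917) and by 0.24 ± 0.03 with shco4 (limma, adjusted p = 0.00239), and 2 of its other probe sets gave the same calls. The shco4 call of PSMD4 ended with a floor at 1 (limma, adjusted p = 0.100). The chaperone PSMD9 rose by 0.28 with shco2 (limma, adjusted p = 0.00998) and by 0.19 with shco4 (limma, adjusted p = 0.0394, and 0.0527 with the block). The shco4 call of PSMD9 held only when scramble replicate 2 was the array left out, reaching an adjusted p of 0.115, and its shco2 value was -0.01 when its 2 probe sets were averaged. The lid subunit PSMD11 fell by 0.28 on the log2 scale with shco4 (limma, adjusted p = 0.0196), a call that ended without scramble replicates 1 or 2 or shco4 replicates 1 or 2, at up to 0.0659. The rest, PSMD1, PSMD2, PSMD3, PSMD5 and PSMD6, passed the test with neither hairpin, and their log2 differences ran from -0.12 to 0.46 with shco2 and from -0.21 to 0.20 with shco4.

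Of the 6 measured genes of the alpha ring, 2 were higher and 1 lower with shco2, and 1 higher and 1 lower with shco4. Over all genes 24.3% were called with shco2 and 22.2% with shco4, and among bright genes 37.1% and 36.4%. PSMA1 and PSMA4 account for the calls with opposite signs. PSMA1 had levels of 12.50, 12.50 and 12.56 with shco2, 11.84, 11.86 and 11.94 with shco4, and 12.30, 12.35 and 12.30 in scramble. The groups did not overlap. It rose by 0.20 ± 0.03 with shco2 (limma, adjusted p = 0.00632) and fell by 0.44 ± 0.03 with shco4 (limma, adjusted p = 0.000605), and its other 2 probe sets gave the same calls. The shco2 call of PSMA1 ended with a floor at 1 and among the brighter probe sets alone, at up to 0.152. PSMA4 ran the other way, with levels of 10.69, 10.65 and 10.82 with shco2, 11.69, 11.72 and 11.68 with shco4, and 11.46, 11.34 and 11.44 in scramble. It was 1.62-fold lower with shco2, -0.69 ± 0.05 (limma, adjusted p = 0.000503), and 1.22-fold higher with shco4, 0.28 ± 0.05 (limma, adjusted p = 0.0122, and 0.0835 with a floor at 1).

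PSMA5 rose by 0.28 with shco2 (limma, adjusted p = 0.0413, and 0.0765 with the block). Its call held only when scramble replicate 2, shco4 replicate 1 or shco4 replicate 3 was the array left out, and reached 0.122. PSMA2, PSMA3 and PSMA7 were called in no comparison on their brightest probe sets. A dimmer probe set of PSMA7 rose by 0.32 with shco2 (limma, adjusted p = 0.0394), where its brightest was -0.0042. With shco4, PSMA2 was 0.12 and PSMA3 0.22 above scramble on the log2 scale (limma, adjusted p = 0.195 and 0.172, and 0.0312 and 0.0377 with the block), while a dimmer probe set of PSMA2 was -0.63 (limma, adjusted p = 0.0292).

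Of the 4 beta subunits without an active site, 3 rose with shco4 and 1 with shco2. Over all genes 10.7% were higher with shco4 and 13.3% with shco2, and among bright genes 21.7% and 16.3%. PSMB1 had levels of 13.14, 13.07 and 13.09 with shco2, 13.50, 13.45 and 13.56 with shco4, and 13.21, 13.16 and 13.18 in scramble. The shco4 arrays lay above all others. It rose by 0.32 ± 0.03 with shco4 (limma, adjusted p = 0.00195) and by 0.39 on a second bright probe set. Averaged over all its probe sets, 1 of them dim, it was no longer called (limma, adjusted p = 0.890). PSMB4 rose by 0.22 ± 0.04 with shco4 (limma, adjusted p = 0.00840) and was 0.05 with shco2, where its second probe set was 0.25 (limma, adjusted p = 0.0269). The shco4 call of PSMB4 ended under quantile normalization, with a floor at 1 and among the brighter probe sets alone, at up to 0.131. PSMB3 rose by 0.22 ± 0.04 with shco4 (limma, adjusted p = 0.00715) and by 0.16 ± 0.04 with shco2 (limma, adjusted p = 0.0202). The shco2 call of PSMB3 ended without scramble replicates 2 or 3 or shco2 replicates 1 or 3, at up to 0.0673. It also ended under median centring, with a floor at 1 and among the brighter probe sets alone, at up to 0.248. The shco4 call of PSMB3 ended with that floor and among the brighter probe sets alone, at up to 0.126. PSMB2 was not called on its brightest probe set, at 0.10 with shco2 and 0.00 with shco4. Its other, dimmer probe set fell by 1.67 with shco2 (limma, adjusted p = 0.00286), so the direction of PSMB2 is uncertain.

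**Figure D3:**
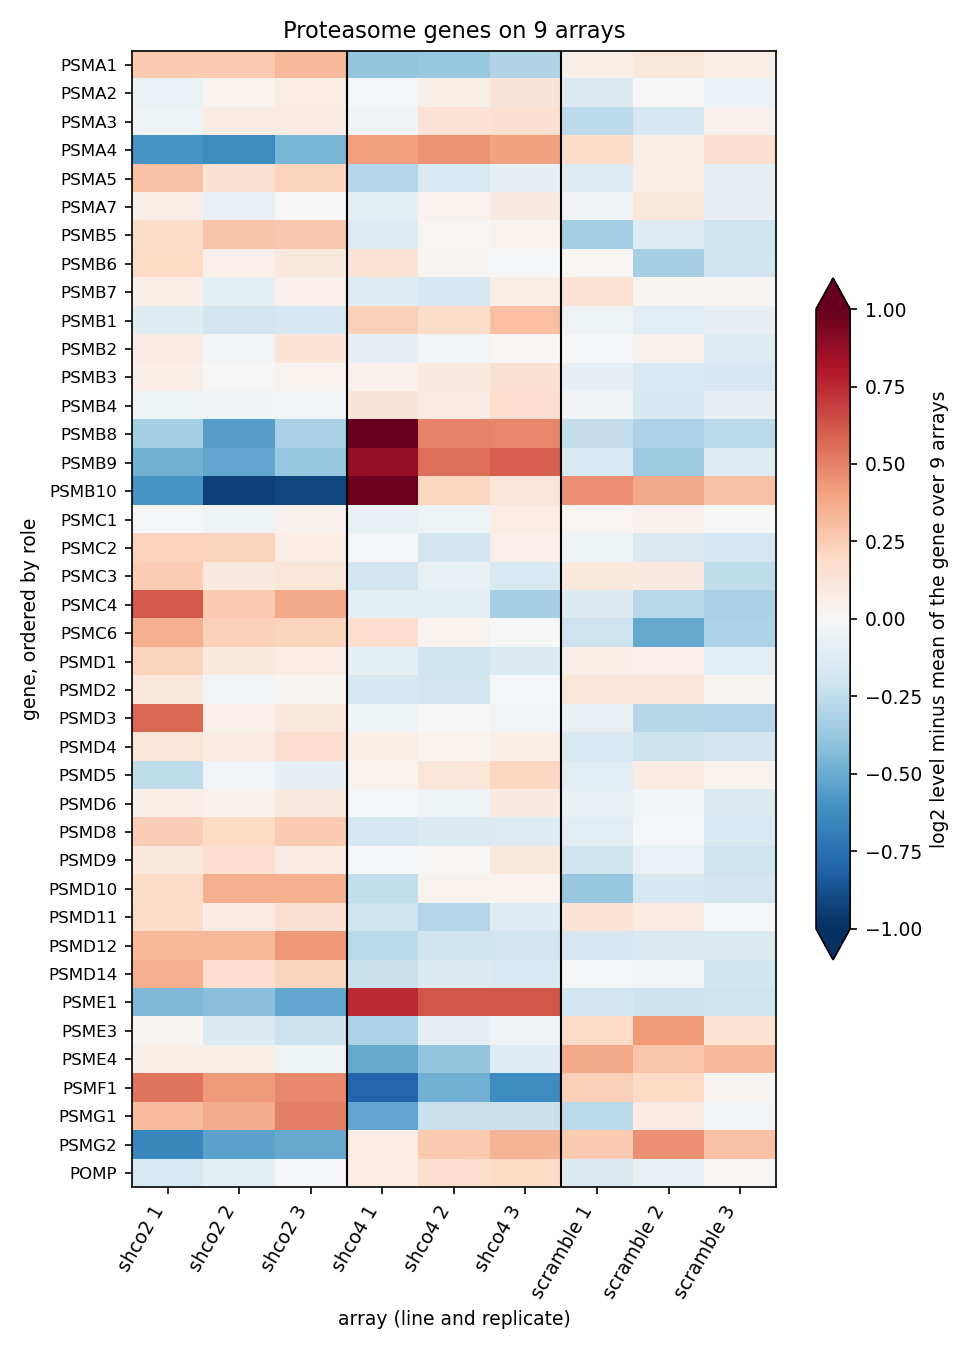
Log2 level of each of the 40 genes (rows, by role) on each array (columns: shco2, shco4, scramble), minus the gene's mean over the 9 arrays; red is above that mean, blue below, and colours end at 1 and -1. PSMB8, PSMB9 and PSME1 are red with shco4, and the PSMC and PSMD rows are mostly red with shco2.

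The activators, the inhibitor and the assembly chaperones differed from scramble by up to 0.90 log2 units. PSMF1, known as PI31, was named for inhibiting the core in vitro. It had levels of 10.17, 10.06 and 10.12 with shco2, 8.84, 9.16 and 9.01 with shco4, and 9.87, 9.84 and 9.66 in scramble, and the groups did not overlap. It was 1.73-fold lower with shco4, -0.79 ± 0.09 (limma, adjusted p = 0.00254). With shco2 it rose by 0.32 ± 0.09 (limma, adjusted p = 0.0489, and 0.0876 with the block). The shco2 call of PSMF1 held only when shco4 replicate 1 or shco4 replicate 2 was the array left out, reaching 0.138. Its second probe set was -0.06 with shco2 and -0.25 with shco4 and was not called.

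PSME4 encodes the activator PA200. It was 1.59-fold lower with shco4, -0.67 ± 0.10 (limma, adjusted p = 0.00518), and -0.30 with shco2 (limma, adjusted p = 0.0740). A dimmer probe set of PSME4 fell with both, by 0.42 with shco2 (limma, adjusted p = 0.0341) and 0.47 with shco4 (limma, adjusted p = 0.0244). PSME3, the nuclear PA28 gamma, was -0.36 with shco2 and -0.39 with shco4 (limma, adjusted p = 0.0741 and 0.0576), and its 4 probe sets disagreed. With shco2 they ran from -1.36 (limma, adjusted p = 0.00391) to 0.27 (limma, adjusted p = 0.259).

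PSMG2, a chaperone that pairs with PSMG1 to assemble the alpha ring, had levels of 10.75, 10.86 and 10.89 with shco2, 11.48, 11.66 and 11.74 with shco4, and 11.66, 11.86 and 11.69 in scramble. The shco2 arrays lay below all others, and shco4 overlapped scramble. It was 1.87-fold lower with shco2, -0.90 ± 0.09 (limma, adjusted p = 0.00115), and -0.11 with shco4 (limma, adjusted p = 0.479). Its partner PSMG1 rose by 0.47 ± 0.12 with shco2 (limma, adjusted p = 0.0375), which held only when scramble replicate 2 or shco4 replicate 1 was the array left out and reached 0.114. POMP, the maturation factor of the core, rose by 0.21 ± 0.06 with shco4 (limma, adjusted p = 0.0455), which held only when scramble replicate 3 or shco2 replicate 3 was the array left out and reached 0.125.

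PSMB3, PSMC6, PSMD4 and PSMD9 were called higher with each hairpin, though the shco4 call of PSMD9 ended with the block (limma, adjusted p = 0.0527). Each of these 4 lost its shco4 call with a floor at 1. PSMA1 and PSMF1 were called higher with shco2 and lower with shco4, while PSMA4 and PSME1 were called lower with shco2 and higher with shco4. Both comparisons share the scramble arrays, so how often their calls match or oppose is not read as a result. A gene called with 1 hairpin is not thereby shown to differ between them, which the direct comparison tests.

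Between the hairpins, 22 of 40 genes differed, 9 higher and 13 lower with shco4 than with shco2. The background was 35.4%, with 16% higher and 19.3% lower, and among bright genes it was 58.5%, with 33.8% higher and 24.7% lower. The members' 55% stood near the share among bright genes. With quantile normalization the split was 8 higher and 18 lower.

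All 3 inducible subunits and PSME1 were higher with shco4. PSMB8 was 2.11-fold higher (limma, adjusted p = 0.00254), PSMB9 2.19-fold (limma, adjusted p = 0.000467), PSMB10 2.38-fold (limma, adjusted p = 0.00745) and PSME1 2.18-fold (limma, adjusted p = 3.61e-05). Without shco4 replicate 1 the log2 differences were 0.90, 1.03 and 0.98 for the subunits in that order, and all kept their calls. Of the constitutive genes, PSMB5 was lower with shco4, by -0.27 ± 0.07 on the log2 scale (limma, adjusted p = 0.0224). That call ended without shco2 replicates 2 or 3 or shco4 replicate 1, at up to 0.0729. PSMB6 was -0.07 ± 0.09 and PSMB7 -0.08 ± 0.07, neither called.

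Of the 17 genes of the 19S particle, 0 were higher and 7 lower with shco4 than with shco2. The share of 41.2% lower stood against 19.3% of all genes and 24.7% of bright genes. A negative sign was seen in 16 of 17, with a median log2 difference of -0.27. PSMC4 was -0.59 ± 0.11 (limma, adjusted p = 0.00798), PSMD14 -0.42 ± 0.07 (limma, adjusted p = 0.00454) and PSMD8 -0.38 ± 0.04 (limma, adjusted p = 0.000511). PSMD12 was -0.58 on its bright probe set and 0.58 on its dim one, both called. Dimmer probe sets of PSMC2 and PSMD9 were also called higher with shco4, by 0.55 and 0.51 (limma, adjusted p = 0.00323 and 0.0460). So was a dim probe set of PSMD5, at the floor on 6 arrays (limma, adjusted p = 0.0183). No other dimmer probe set of a 19S gene was called here, so the counts hold for the brightest probe sets. PSMD11 was -0.36 (limma, adjusted p = 0.00413), and -0.07 averaged over its probe sets (limma, adjusted p = 0.711). The scaffold PSMD1 was -0.28 (limma, adjusted p = 0.0137, and 0.0705 with a floor at 1) and PSMD10 -0.36 (limma, adjusted p = 0.0370). The call of PSMD10 held only when scramble replicate 1 or shco2 replicate 1 was the array left out, and reached 0.111. PSMC6 at -0.20, PSMD4 at -0.07 and PSMD5 at 0.24 were called with the block alone (limma, adjusted p = 0.0465, 0.0464 and 0.00697).

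In the core, PSMA4 was 1.97-fold higher with shco4 than with shco2 (limma, adjusted p = 7.83e-05), and PSMB1 0.40 higher on the log2 scale (limma, adjusted p = 0.000349, and 0.07 at 0.748 averaged over its probe sets). PSMB4 was 0.17 higher (limma, adjusted p = 0.0128), a call that ended under quantile normalization, with a difference of 0.0003 (limma, adjusted p = 1), and under median centring, a floor at 1, the filter on dim probe sets and the mean of its probe sets, at 0.0574 to 0.190. PSMA1 was -0.64 (limma, adjusted p = 6.41e-05) and PSMA5 -0.40 (limma, adjusted p = 0.00690). Of the remaining genes, PSMF1 was 2.16-fold lower with shco4 (limma, adjusted p = 0.000299), PSMG1 -0.72 (limma, adjusted p = 0.00479) and PSMG2 0.79 (limma, adjusted p = 0.000859). PSME4 was -0.37 (limma, adjusted p = 0.0273), a call that ended without shco2 replicates 1 or 2 or shco4 replicates 1 or 2, at up to 0.0832, and with the block, at 0.0623. POMP was 0.24 (limma, adjusted p = 0.0207), a call that ended without shco2 replicates 1 or 2 or shco4 replicates 2 or 3, at up to 0.0660.

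The interferon gamma route to the immunoproteasome was read from 12 measured genes. With shco2, 2 were higher and 6 lower, and with shco4, 5 were higher and 2 lower. Over all genes 13.3% were higher and 11% lower with shco2, and 10.7% higher and 11.5% lower with shco4. IRF1, the transcription factor that carries the interferon signal to ISRE letters, had levels of 8.85, 8.76 and 8.83 with shco2, 9.79, 9.82 and 9.71 with shco4, and 9.59, 9.48 and 9.60 in scramble. The groups did not overlap. It fell by 0.74 ± 0.05 on the log2 scale with shco2 (limma, adjusted p = 0.000316) and rose by 0.22 ± 0.05 with shco4 (limma, adjusted p = 0.0201). The shco4 call of IRF1 ended without shco4 replicates 1 or 2, at up to 0.0621, and with a floor at 1, at 0.150. TAP1, the peptide transporter gene whose locus lies between PSMB8 and PSMB9, had levels of 10.08, 9.73 and 9.88 with shco2, 11.21, 10.86 and 11.05 with shco4, and 10.64, 10.48 and 10.21 in scramble. It fell by 0.55 with shco2 (limma, adjusted p = 0.0450) and rose by 0.60 with shco4 (limma, adjusted p = 0.0363). The shco2 call of TAP1 held only when scramble replicate 3 was the array left out and reached 0.130, and its shco4 call ended without scramble replicates 2 or 3, shco2 replicate 3 or shco4 replicates 1 or 3, at up to 0.104. Between the hairpins, with shco4 relative to shco2, IRF1 was 0.96 higher (limma, adjusted p = 5.98e-05) and TAP1 1.14 higher (limma, adjusted p = 0.00171), and both calls held with every array left out in turn.

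Other genes of that route gave other orders of the groups. JAK1, a kinase of the interferon receptors, fell by 1.66 with shco2 (limma, adjusted p = 0.000132) and by 1.67 with shco4 (limma, adjusted p = 0.000190). The receptor gene IFNGR1 rose by 0.41 with shco2 (limma, adjusted p = 0.0162) and by 1.0 with shco4 (limma, adjusted p = 0.000945). The shco2 call of IFNGR1 ended without scramble replicates 1 or 3, at up to 0.0557. The NF-kB subunit RELA fell by 0.49 with shco2 (limma, adjusted p = 0.00220) and rose by 0.21 with shco4 (limma, adjusted p = 0.0454), while NFKB1 rose with both, by 0.70 and 0.57. The shco4 call of RELA held only when scramble replicate 2 was the array left out, reached 0.122, and had an adjusted p of 0.0521 with the block. TAPBP, the tapasin gene, fell by 1.47 with shco4 on its bright probe set (limma, adjusted p = 0.000329) and rose by 1.02 on a dim one (limma, adjusted p = 0.0499), so its direction depends on the probe set. Between the hairpins, B2M was 0.39 higher with shco4 (limma, adjusted p = 0.00592).

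Of 12 measured regulators of proteasome genes, 1 was higher and 1 lower with shco2, and 2 higher and 2 lower with shco4, against 24.3% and 22.2% of all genes called in either direction. NFE2L1 had levels of 11.23, 11.20 and 11.06 with shco2, 9.44, 9.70 and 9.51 with shco4, and 10.97, 10.61 and 10.70 in scramble. The shco4 arrays lay below and the shco2 arrays above all scramble arrays. It was 2.32-fold lower with shco4, -1.21 ± 0.11 (limma, adjusted p = 0.00125), and its other 2 probe sets also fell. With shco2 it was 0.40 ± 0.11 on its brightest probe set (limma, adjusted p = 0.0502), and both others rose, by 0.48 and 0.50 (limma, adjusted p = 0.00406 and 0.0140). NFE2L2, the oxidative stress factor NRF2, rose by 0.41 with shco2 (limma, adjusted p = 0.00138) and by 0.27 with shco4 (limma, adjusted p = 0.00631). NFE2L3 fell by 0.76 with shco2 (limma, adjusted p = 0.00914). With shco4, STAT3 rose by 0.57 (limma, adjusted p = 0.0104) and NFYC fell by 0.63 (limma, adjusted p = 0.00471).

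**Figure D4:**
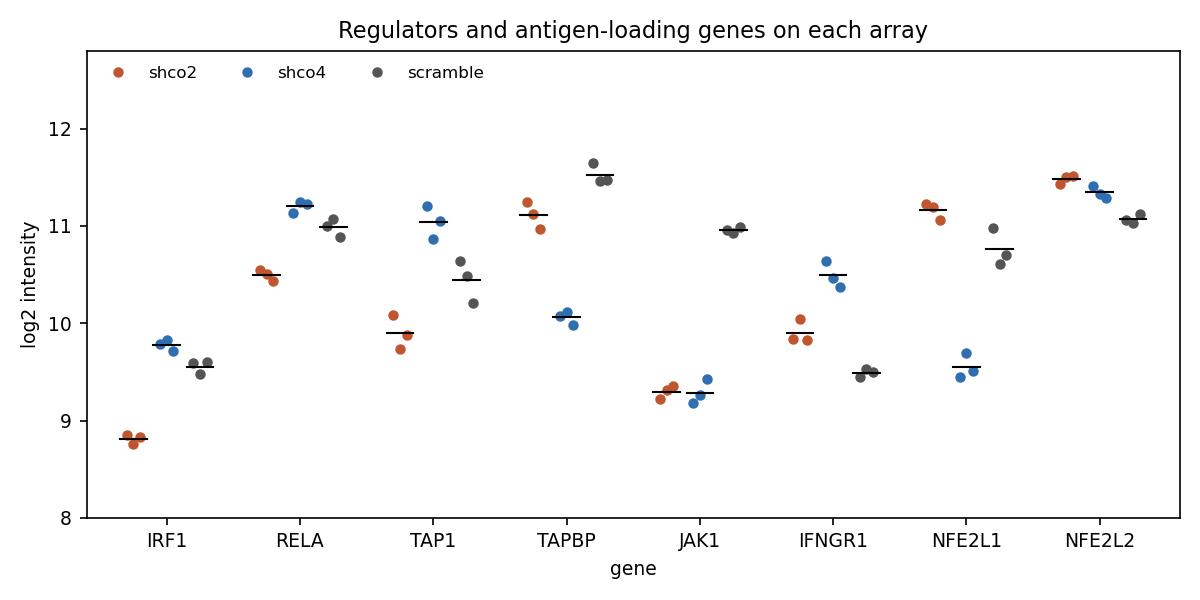
Log2 intensity (y axis) of regulators and antigen-loading genes on each array (points; bars are group means), with shco2, shco4 and scramble from left to right for each gene. IRF1 and TAP1 are lowest with shco2 and highest with shco4, and NFE2L1 is lowest with shco4.

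A list of 16 other measured genes held partners of the proteasome and PSMC3IP, which is named for its binding to PSMC3 and acts in meiotic recombination. Of the 16, 5 were higher and 0 lower with shco2, PSMC3IP among the 5, and 4 were higher and 4 lower with shco4. Over all genes 13.3% were higher with shco2, and 10.7% higher and 11.5% lower with shco4. ADRM1, the ubiquitin receptor of the 19S particle, had levels of 11.50, 11.41 and 11.54 with shco2, 11.80, 12.08 and 12.14 with shco4, and 10.96, 10.84 and 10.96 in scramble. It rose 1.48-fold with shco2 (limma, adjusted p = 0.00728) and 2.12-fold with shco4 (limma, adjusted p = 0.000984), and the groups did not overlap. UCHL5, the deubiquitinase that ADRM1 recruits, had levels of 10.93, 10.85 and 10.83 with shco2, 9.45, 9.71 and 9.84 with shco4, and 10.23, 10.02 and 10.11 in scramble. It rose by 0.75 with shco2 (limma, adjusted p = 0.00419) and fell by 0.46 with shco4 (limma, adjusted p = 0.0273), and its second probe set gave the same calls. The shco4 call of UCHL5 ended without any 1 scramble array, shco2 replicate 2 or shco4 replicate 2, at up to 0.0833, and with the block, at 0.0638. The shuttle factor UBQLN2 rose by 0.70 with shco4 (limma, adjusted p = 0.00343), and PAAF1, which binds the 19S ATPases, rose with both, by 0.42 and 0.57.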

How the data were processed

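Expression was measured on 9 one-colour Affymetrix 3′ arrays from 200 ng total RNA each. The authors deposited 1 linear intensity per probe set, and from the values each array was scaled to a common trimmed mean (2% off each end); the software is not given in the sources used here. Intensities were set to a floor of 16 and taken to log2. Of 22277 probe sets, 62 controls were left out and 22215 tested with limma 3.58.1 in R 4.3.3 (lmFit, eBayes, prior df 0.53) in a single model of all 9 arrays, two-sided, with Benjamini-Hochberg adjustment per comparison and calls at an adjusted p under 0.05. The fit was tested on simulated data. Precision is limited by 3 arrays a group.

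Symbols came from the platform annotation, in which 19064 probe sets have a single symbol. Members and gene lists were chosen with earlier results of these data known. Genes were named by role, by the largest called differences and by the smallest p of each list; other members are named to account for all 40, chosen after their values were seen. PSME2, planned, shares its probe set and has no value. Alternatives were quantile normalization, median centring, floors of 64 and 1, a filter at mean log2 6, a trended robust prior, a replicate block, the 2 groups compared alone, the mean of a gene's probe sets and each array left out.

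Labels number replicates 1 to 3 in each group. Deviations from group means of same-numbered arrays correlated at 0.13 to 0.23 for shco4 and scramble, so the numbers were treated as pairs there, from the data and not from the labels, and blocked values stand beside results whose call changes. For shco2 and scramble the correlations were 0.06 to 0.29, and for shco4 and shco2 0.06 to 0.21. They were also taken over the 14686 probe sets above the floor on all arrays. There they were 0.215 to 0.34, 0.096 to 0.412 and 0.106 to 0.301 in the same order. So for shco4 and shco2 the pairing depends on the probe sets used, and blocked values are given there too. For shco2 and scramble the blocked values are given beside PSMA5, PSMB6, PSMC2 and PSMF1, the members whose calls the block changed. These changes are also listed further on.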

Additional observations from a re-analysis of the deposited data

Results flagged for a closer look

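The 4 genes called in opposite directions with the 2 hairpins were also called in the direct limma comparison of the hairpins. That follows from how they were picked, since the direct difference is that of both differences from scramble, and it is no independent test. PSMA1 had a log2 difference of -0.64 with shco4 relative to shco2. PSMA4 had a difference of 0.98. PSME1 had a difference of 1.12. PSMF1 had a difference of -1.11, and its second probe set had -0.19 and was not called. Samples far from their group were not looked for, because groups of 3 arrays are too small for that test.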

How the results depend on the processing

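Of 56 calls on members, 27 held under every alternative run and 14 ended when some array was left out. Of 54 calls on named genes of the pathway lists, 32 held under every alternative and 15 ended with an array left out. With a floor of 1, 10 members were called with shco2 (7 higher, 3 lower) and 7 with shco4 (4 higher, 3 lower), against 19 and 15 with the floor of 16, while 20.3% and 17.4% of all genes were called; the cause was not tested. Quantile normalization gave median member differences of 0.17 for shco2 against scramble and -0.20 for shco4 against shco2, and an inducible minus constitutive difference of -0.84 for shco2 against scramble. It also turned the sign of PSMB3 between the hairpins to -0.13 and of UBB with shco4 to -0.0076. Averaging all probe sets of a gene turned PSMB2 to -0.79 with shco2 and 0.50 between the hairpins, PSMC2 to 0.17 between the hairpins and PSMD9 to -0.006 with shco2, since the dimmer probe sets differ. With arrays left out in turn, 14 to 19 members were called with shco2, 11 to 14 with shco4 and 18 to 22 between the hairpins, against 17.5% to 24.5%, 14.8% to 20.8% and 29.5% to 34.3% of all genes. The median differences ran from 0.0822 to 0.15, 0.0403 to 0.12 and -0.12 to -0.07 in that order, and the inducible minus constitutive differences from -0.79 to -0.72, 0.34 to 0.66 and 1.10 to 1.41. With replicate numbers entered as a block, limma called 17 members with shco2, 19 with shco4 and 24 between the hairpins, against 27.4%, 25.1% and 38.1% of all genes. In the other comparisons every array also correlated best with its own number (6 of 6 in each comparison). There the block ended the calls of PSMA5 (adjusted p = 0.0765), PSMC2 (0.0569) and PSMF1 (0.0876) with shco2 and of PSME4 (0.0623) between the hairpins, and added PSMB6 (0.0230) with shco2 and PSMC6, PSMD4 and PSMD5 between the hairpins. Among the brighter probe sets alone, 42.4%, 39.4% and 56.6% of genes were called, against 18, 12 and 20 of 40 members.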

Other observations

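Other genes of the fixed lists also differed. AKIRIN2, which carries proteasomes into the nucleus, had log2 levels of 5.32, 5.66 and 5.29 with shco2, 4.00, 4.07 and 4.00 with shco4, and 5.36, 4.85 and 5.13 in scramble. It was lower with shco4 (limma, adjusted p = 0.00453), and 2 of its shco4 arrays were at the floor of 4, so no fold is given. PSMC3IP, a meiotic recombination factor named for its binding to PSMC3, rose by 0.92 with shco2 (limma, adjusted p = 0.00228) and fell by 0.43 with shco4 (limma, adjusted p = 0.0365), and its second probe set gave the same calls. The shco4 call of PSMC3IP held only when scramble replicate 2 or 3 was the array left out, and reached 0.103.

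Of the 3 measured ubiquitin and E1 genes, 1 was higher with shco2, and 1 was higher and 1 lower with shco4. UBA6, a ubiquitin-activating enzyme, rose by 0.38 with shco2 (limma, adjusted p = 0.0240) and fell by 0.35 with shco4 (limma, adjusted p = 0.0330). The shco2 call of UBA6 ended when any 1 scramble array or shco2 replicate 1 or 2 was left out, at up to 0.0772, and its shco4 call held only when shco2 replicate 1 or 3 or shco4 replicate 2 was the array left out, reaching 0.104. UBA1, the main ubiquitin-activating enzyme, was 0.75 higher with shco4 than with shco2 (limma, adjusted p = 0.00468). The scaffold gene ECPAS was 0.42 higher in the same comparison (limma, adjusted p = 0.00272).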
